A study of Homo sapiens with 11 samples.

Results

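HCT116 is an established human cell line from a colorectal carcinoma. The profile described here is its total RNA in the control state of the study: cells transfected with an siRNA against luciferase (siLuc), a gene these cells do not have, and given DMSO, the solvent of the drug. The members are the 58699 genes of the authors' deposited table for total RNA, each with its value in the siLuc DMSO group alone. The group has 2 of the 11 libraries of the series, and the other 9 were not compared here. The series concerns double-stranded RNA from endogenous retroviruses, and its other libraries come from cells with decitabine, with an siRNA against Staufen1 or with both, or from antibody-enriched RNA. A protocol text on decitabine is attached to all libraries, also to these 2, whose own treatment label is DMSO. The cells are a single tumour line grown in culture, so the profile speaks for these cells and not for colon tissue.

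Values are FPKM, fragments counted per transcript length and library size, which allow levels of different genes to be compared per length. The authors gave 1 value for the 2 libraries together. No spread between replicates, no test and no library depth can therefore be given for any value below, and a gene listed at 0 may be unexpressed, below the depth of the libraries, or a value the program could not estimate. A gene is called expressed here at 1 FPKM or more. Over all protein-coding genes 56.7% were, the share to set beside each count of a protein-coding list or family below. The limit cuts through a continuous range: the genes nearest to it were AC073508.2 at 0.9998 FPKM and SMPDL3A at 0.999 FPKM on one side, and GPR3 at 1.00008 FPKM and SLC36A1 at 1.00025 FPKM on the other.

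Every human cell transcribes a shared set of genes for translation, energy and the cytoskeleton, and adds the genes of its own lineage. In the colon, epithelial cells carry keratins and tight junction proteins, stem cells at the crypt base depend on Wnt signals, and their descendants become absorptive colonocytes or secretory cells. Promoters of widely expressed genes tend to be rich in CpG dinucleotides, and mRNAs of the translation machinery often begin with a cytosine followed by a run of pyrimidines, the terminal oligopyrimidine (TOP) start, through which growth signals control their translation.

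The TOP start is shown first because the highest mRNAs of the profile are largely those of the translation machinery. Of the 20 protein-coding genes with the highest FPKM, 16 have an entry in the RefSeq promoter table used here, and 9 of these have a C as the first base of the annotated transcript followed by 4 bases that are each C or T. The windows below hold 20 bases before and 10 bases after the annotated start, in the direction of the gene, on GRCh38.p14. The capitals mark the 5 bases of the TOP start, which lies at the beginning of the first exon.
EEF1A1, chr6:73521023-73521052, minus strand: cagtagtcgccgtgaacgttCTTTTtcgca
RPL37A, chr2:216498824-216498853, plus strand: cctgcgcaccgcgtctcttcCTTTCtgggc
RPS18, chr6:33272055-33272084, plus strand: gatatcgcgtcacttccgctCTCTCttcca
PTMA, chr2:231708505-231708534, plus strand: gcttctggcgccgcgtgagtCCCCCactgg
RPL38, chr17:74203658-74203687, plus strand: ccggaaacggaagtctcgttCTTTTtcgtc
RPS27, chr1:153990742-153990771, plus strand: gcaggatttccgctttcgctCCTTTccggc
RPL12, chr9:127451397-127451426, minus strand: cttgtccgcgcgatttccggCCTCTcggct
RPS14, chr5:150449730-150449759, minus strand: tcgctccgccccctcccactCTCTCtttcc
RPS6, chr9:19380227-19380256, minus strand: gcgctaagcggaagttggccCTCTTttccg
The annotated starts of the other 7, ribosomal protein genes RPL11 and RPL19 among them, lack the 5-base run, and their windows carry no capitals. The start used in these cells may lie elsewhere.
TMSB10, chr2:84905636-84905665, plus strand: ggggcgggcgccgctcttttgtttcttgct
GAPDH, chr12:6535244-6535273, plus strand: tgcgcagcgggtgcatccctgtccggatgc
HSP90AB1, chr6:44246174-44246203, plus strand: gtcccccccgcaggtactccactctcagtc
RPL11, chr1:23691759-23691788, plus strand: gagcccgcctcctggcccataaggccctcg
PPIA, chr7:44796661-44796690, plus strand: cgggaggccaggctcgtgccgttttgcaga
RPL19, chr17:39200263-39200292, plus strand: gggtttgggctctccccttcgcagataatg
ENO1, chr1:8878677-8878706, minus strand: tcggcgcgggcggcgcggacagtatctgtg

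The share of promoters with a TOP start was highest among the most abundant mRNAs. It was 48.3% of the 87 promoters of genes at 1000 FPKM or more, 11.1% of 678 at 100 to 1000 FPKM, 5.13% of 4565 at 10 to 100 FPKM and 4.28% of 3928 at 1 to 10 FPKM, beside 4.62% of all 15357 promoters matched. Ribosomal protein genes made up much of the highest class: 34 of their 47 promoters there had the start, and 8 of the 40 promoters of other genes did. Those 8 genes were EEF1A1 and EEF2, which deliver aminoacyl-tRNA to and move mRNA through the ribosome, RACK1 and FAU, which encode ribosome components, TPT1, NPM1, BTF3 and PTMA. Over all cytosolic ribosomal protein genes taken by symbol, which leave out FAU, 43 of the 67 matched promoters, 64.2%, had it. The table gives 1 annotated start per gene, which need not be the start used in these cells, so a window without the run says only that these letters are not at that position.

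Of all 58699 genes, 13367 (22.8%) reached 1 FPKM and 34536 were listed at 0. Protein-coding genes filled most of the expressed set. Of 19940 protein-coding genes, 11299 (56.7%) reached 1 FPKM, 6364 reached 10 FPKM, 913 reached 100 FPKM and 108 reached 1000 FPKM. At the other end, 4656 were listed at 0, 1853 lay above 0 and under 0.1 FPKM, and 2132 lay between 0.1 and 1 FPKM. The expressed protein-coding genes had a median of 12.4 FPKM with quartiles of 4.84 and 32.0 FPKM. Their distribution had 1 hump, and its fullest bins, each 0.5 wide on the log2 scale, were centred at log2 FPKM of 3.25, 3.75 and 4.25 with 1117, 1109 and 1101 genes.

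**Figure D1:**
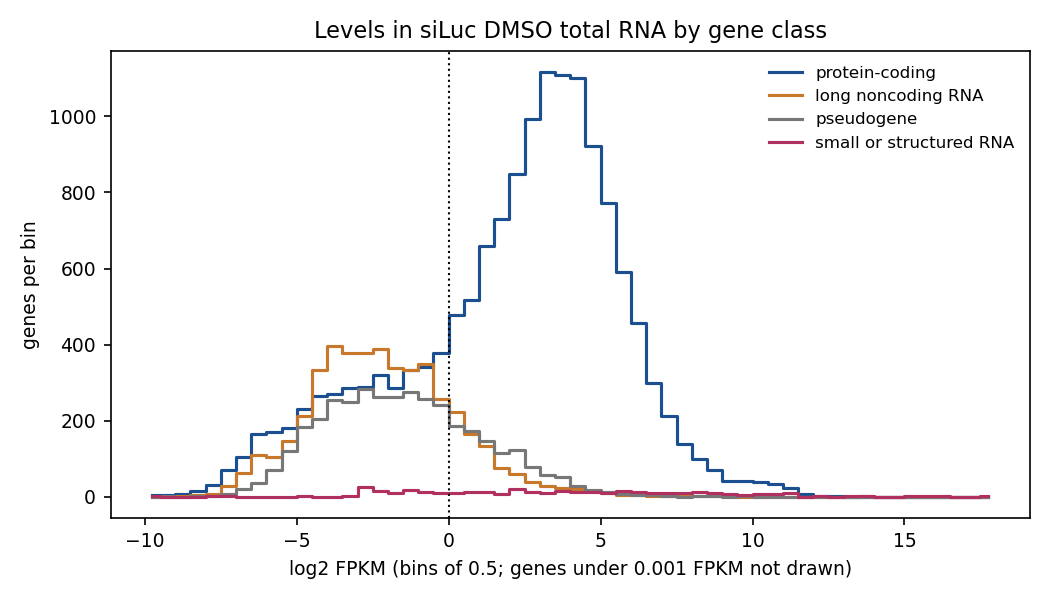
Number of genes per bin of log2 FPKM (x axis, bins of 0.5; y axis, genes) in siLuc DMSO total RNA, with 1 line per gene class and a dotted line at 1 FPKM. Protein-coding genes pile up right of the dotted line, in bins centred at 3.25 to 4.25, while most long noncoding RNAs and pseudogenes above 0 lie left of the dotted line.

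The other classes were mostly silent by gene number. Of 16066 long noncoding RNA genes 808 (5.03%) reached 1 FPKM, of 14492 pseudogenes 1003 (6.92%), and of 5663 genes of small or structured RNA 252 (4.45%). The small class nevertheless held 44.0% of the summed FPKM, beside 52.8% for protein-coding genes, 2.35% for long noncoding RNAs and 0.738% for pseudogenes. One of the 2 RMRP identifiers described below is annotated as a long noncoding RNA and holds most of that class's share. Of 1868 microRNA genes only MIR1248, at 60.03 FPKM, reached the limit. It lies within the host gene EIF4A2, at 259 FPKM, and its annotated stretch overlaps that of the small nucleolar RNA SNORA81, at 162 FPKM, so its reads cannot be assigned to it alone. A fragment library of total RNA is not built to hold mature microRNAs, and whether this lies behind their low values was not tested. All annotated nuclear ribosomal RNA genes, such as those of 5S and 5.8S rRNA, were listed at 0, and the labels' protocol names a depletion of ribosomal RNA.

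The highest values of the profile belonged to short RNAs that RNA polymerase II or III makes, several of them for RNA processing. SNORD3A, the U3 small nucleolar RNA that guides the first cuts of the ribosomal RNA precursor, had 207319 FPKM, 18.4% of the sum over all genes (chromosome 17, 19188016 to 19188714). RN7SK, which holds the elongation factor P-TEFb inactive, followed with 80919 FPKM (chromosome 6, 52995621 to 52995948). RPPH1, the RNA of ribonuclease P that trims tRNA precursors, had 63301 FPKM (chromosome 14, 20343075 to 20343407). RMRP, the RNA of the related ribonuclease MRP, appears under 2 identifiers on the same stretch of chromosome 9, at 33880 and 15659 FPKM. These 4 RNAs of rRNA, tRNA and transcription control stood above every mRNA of the table. RN7SL3, a copy of the signal recognition particle RNA that takes ribosomes to the endoplasmic reticulum, had 15306 FPKM, SNORA63 had 11242 FPKM, SNORD15B 4597 FPKM and RNY3, a Y RNA, 2813 FPKM. A second gene model on the RN7SK stretch, RF00100, had 10807 FPKM.

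Several of these values cannot be assigned to 1 gene. RN7SL1 and RN7SL2, near-identical copies of RN7SL3 on chromosome 14, were both listed at 0. Other U3 copies ranged from SNORD3B-1 at 809 FPKM and SNORD3C at 379 FPKM to SNORD3B-2 at 22.2 FPKM, and both identifiers of SNORD3D were at 0. The FPKM of a transcript hardly longer than a fragment is also a less certain quantity than that of a long one. The order of the 10 highest therefore describes the table and not molecule numbers per cell.

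The sum was concentrated in few genes when all classes were counted and far less so among mRNAs. The 10 highest genes held 39.8% of the summed FPKM of all genes, and 53 genes held 50%. Among protein-coding genes the 10 highest held 6.60% of the protein-coding sum, the 100 highest held 32.6%, 283 genes held 50% and 3941 held 90%. Without the cytosolic ribosomal protein genes the 100 highest held 26.0% and 517 genes were needed for 50%.

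**Figure D2:**
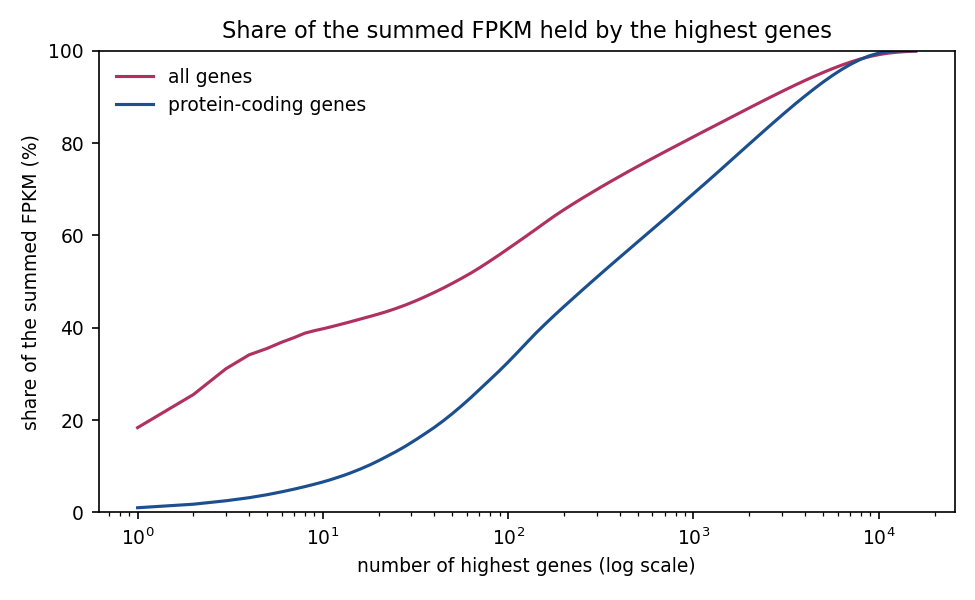
Share of the summed FPKM (y axis, %) held by the highest genes (x axis, number of genes on a log scale), for all genes and for protein-coding genes alone. The curve of all genes starts at the 18.4% of SNORD3A and reaches 39.8% at 10 genes, where the protein-coding curve stands at 6.60%.

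The highest mRNA was EEF1A1, the elongation factor that brings aminoacyl-tRNA to the ribosome, with 6066 FPKM or 1.02% of the protein-coding sum (ENSG00000156508.17, chromosome 6, 73515750 to 73523797). TMSB10, a small protein that binds actin monomers, had 4557 FPKM (chromosome 2, 84905625 to 84906675), and GAPDH, a glycolytic enzyme, 4459 FPKM (chromosome 12, 6533927 to 6538374). Below them stood the ribosomal proteins RPL37A at 3961 FPKM, RPS20 at 3876 FPKM and RPS18 at 3730 FPKM. The chromatin protein prothymosin alpha, PTMA, had 3474 FPKM and the chaperone HSP90AB1 3076 FPKM. The prolyl isomerase PPIA had 2676 FPKM and the glycolytic enzyme ENO1 2632 FPKM. RPL38, RPS27, RPL11, RPL12, RPS14, RPS6, RPL7 and RPL19 lay between 3260 and 2656 FPKM, and 13 of the 20 highest encode ribosomal proteins.

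Ribosomal protein genes were the highest large family. Of 84 cytosolic ribosomal protein genes 80 reached 1 FPKM, 77 reached 100 FPKM and 61 of the 108 protein-coding genes at 1000 FPKM or more were theirs. The family had a median of 1565 FPKM and 22.4% of the protein-coding sum. Copies known from single tissues are counted among the 84 and lay far below the family's median. RPL3L, the form of muscle, had 0.222 FPKM beside 1512 FPKM of RPL3. RPL10L, a form of testis, had 0.0748 FPKM beside 1539 FPKM of RPL10, and RPL39L was listed at 0 beside 1165 FPKM of RPL39. RPL22 and its paralog RPL22L1 were both high, at 553 and 874 FPKM. EEF1A2, the paralog of EEF1A1 best known from neurons and muscle, reached 204 FPKM. All 78 mitochondrial ribosomal protein genes reached 1 FPKM, the lowest being MRPL50 at 12.4 FPKM and the highest MRPL51 at 299 FPKM. Of 56 translation initiation factor genes 52 did, led by the helicase EIF4A1 at 1207 FPKM.

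Transcripts of the mitochondrial genome covered a wide range. MT-CO2, MT-CO3 and MT-ND3, which encode subunits of complex IV and complex I, had 1105, 1093 and 1072 FPKM, and MT-CO1 had 725 FPKM. The other 9 mitochondrially encoded mRNAs lay between 21.7 FPKM, for MT-ND2, and 102 FPKM, for MT-ND4L. These mRNAs are cut from the same long precursors. Leaving out all 13 moved the share of the 100 highest mRNAs only from 32.6% to 32.8%. The mitochondrial rRNAs MT-RNR2 and MT-RNR1, which ribosomal RNA depletion can remove, had 280 and 52.7 FPKM, and all 22 mitochondrial tRNAs were listed at 0. Of 48 nuclear genes for complex I subunits and assembly factors 46 reached 1 FPKM, led by NDUFS5 at 583 FPKM. Of the paired forms of complex IV subunits COX4I1, COX6A1 and COX7A2 had 790, 346 and 415 FPKM, while COX4I2, COX6A2 and COX7A1 were listed at 0.

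Protein folding and turnover genes were also mostly high. Of 26 heat shock proteins and chaperones 23 reached 1 FPKM, with a median of 269 FPKM beside 2.42 FPKM over all protein-coding genes. The constitutive forms led: HSP90AB1 had 3076 FPKM beside 657 FPKM of HSP90AA1, HSPA8 had 2219 FPKM, and the mitochondrial HSPD1 and its partner HSPE1 had 1214 and 536 FPKM. The 8 subunits of the TRiC chaperonin, a ring that folds actin and tubulin, ranged from CCT4 at 241 FPKM to CCT3 at 656 FPKM. The stress-induced HSPA6 and the small heat shock protein CRYAB were listed at 0. HSPA1B had 63.1 FPKM and its near-identical neighbour HSPA1A 1.33 FPKM, a division that depends on how reads were shared between the copies. Of 45 proteasome genes 42 reached 1 FPKM and all 42 reached 10 FPKM, led by PSMA7 at 415 FPKM, while PSMA8, a form of testis, was listed at 0.

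For most steps of glycolysis 1 or 2 isozymes stood far above the others. Of 33 glycolytic enzymes and glucose and lactate transporters 22 (66.7%) reached 1 FPKM, beside 56.7% of all protein-coding genes, and 11 reached 100 FPKM. The highest were GAPDH at 4459 FPKM, ENO1 at 2632 FPKM, PKM at 2081 FPKM, TPI1 at 1042 FPKM, ALDOA at 578 FPKM and PGK1 at 473 FPKM. LDHB, the heart-type lactate dehydrogenase, had 1200 FPKM and LDHA 1064 FPKM. PFKP had 132 FPKM, PFKM 93.1 FPKM and PFKL 27.4 FPKM, and hexokinase HK1 had 28.5 FPKM beside 13.8 FPKM of HK2. Of the glucose transporters SLC2A1 had 52.5 FPKM and SLC2A3 6.83 FPKM. Some forms of liver, muscle or testis were at or near 0: SLC2A2, PGAM2 and GAPDHS were listed at 0, and PKLR, PGK2 and LDHC lay between 0.0106 and 0.0812 FPKM. The muscle enolase ENO3 had 1.89 FPKM.

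The cytoskeleton list had 25 of 32 members (78.1%) at 1 FPKM or more, beside 56.7% of all protein-coding genes. Cytoplasmic actins led, with ACTG1 at 1846 FPKM above ACTB at 1041 FPKM, while the muscle actins ACTC1 and ACTG2 were listed at 0 and ACTA1 had 0.0760 FPKM. TMSB10 at 4557 FPKM stood above its paralog TMSB4X at 259 FPKM. Among tubulins TUBA1B had 1289 FPKM, TUBB 476 FPKM, TUBA1C 313 FPKM and TUBB4B 288 FPKM. The actin regulators CFL1 and PFN1 had 1127 and 494 FPKM, and STMN1, which destabilises microtubules in dividing cells, had 679 FPKM.

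The cells carried the general marks of an epithelium. Of 22 colon epithelial markers 12 (54.5%) reached 1 FPKM, close to the 56.7% of all protein-coding genes, so the list as a count did not stand out and its members divided sharply. The simple-epithelium keratins KRT8, KRT18 and KRT19 had 1103, 681 and 537 FPKM. EPCAM, the epithelial adhesion molecule, had 259 FPKM, the claudins CLDN7 and CLDN4 82.4 and 36.6 FPKM, the epithelial factor ELF3 32.4 FPKM and E-cadherin, CDH1, 14.3 FPKM. CDX2, the intestinal homeobox factor, had 7.31 FPKM and KRT20 1.16 FPKM. Products of mature gut epithelium were missing: LGALS4, PHGR1, CEACAM5, CDX1 and FABP1 were listed at 0, and VIL1, GPA33, CDH17, TSPAN8 and CEACAM6 lay between 0.00968 and 0.0614 FPKM. Set against the label of a colorectal line, keratins, EPCAM and CDX2 were present and these 10 markers of mature colon epithelium were not.

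Markers of differentiated colon cells were almost all off. Of 19 markers of goblet, Paneth and enteroendocrine cells 0 reached 1 FPKM and 11 were listed at 0, among them the gut mucin MUC2, the trefoil peptide TFF3, AGR2, CHGB and the Paneth defensins DEFA5 and DEFA6. The highest of the list was REG4 at 0.177 FPKM. Of 14 markers of absorptive colonocytes only the carbonic anhydrase CA2, at 8.22 FPKM, reached the limit. The chloride exchanger SLC26A3, CA1, CA4, the guanylins GUCA2A and GUCA2B and the brush border enzymes ALPI, ANPEP and SI were listed at 0. None of the 17 mucin genes reached 1 FPKM, the highest being MUC12 at 0.521 FPKM. Of 24 claudins 5 did.

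**Figure D3:**
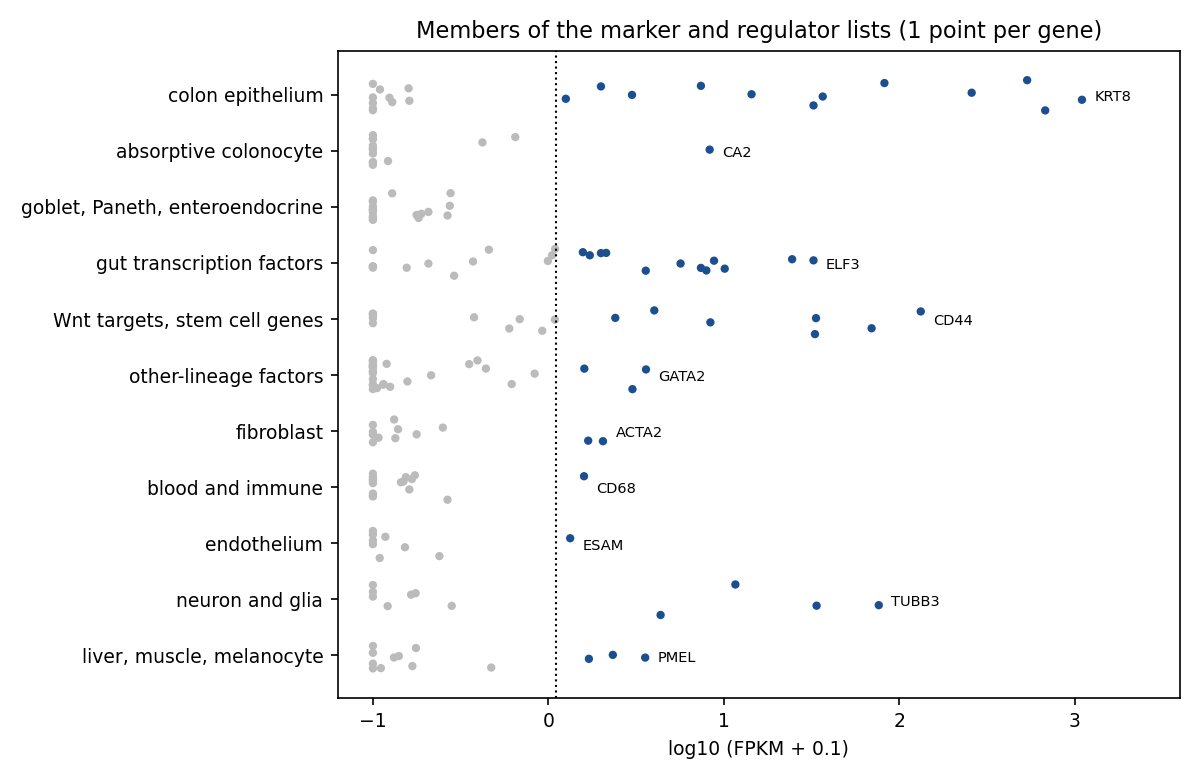
Each point is a gene of a marker or regulator list (y axis, list; x axis, log10 of FPKM + 0.1), blue at 1 FPKM or more and grey below, with the highest gene of each list named where it reaches 1 FPKM and a dotted line at 1 FPKM. The colon epithelium row splits into KRT8, KRT18, KRT19 and EPCAM above 100 FPKM and a group at or near 0, and the secretory row has no point to the right of the line.

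Markers of other cell types were mostly under 1 FPKM, with the neuron and glia list as the main exception. Of 12 fibroblast markers 2 reached 1 FPKM, ACTA2 at 1.95 FPKM and COL1A1 at 1.59 FPKM, while COL1A2, LUM, DCN and POSTN were listed at 0. Of 16 blood and immune markers only CD68, at 1.498 FPKM, did, and PTPRC, CD3D, CD3E and MS4A1 were listed at 0. Of 9 endothelial markers only ESAM, at 1.23 FPKM, did, and PECAM1 and CDH5 were listed at 0. The neuron and glia list had 4 of 11: TUBB3 at 76.5 FPKM, the synaptic vesicle protein SYT1 at 33.8 FPKM, MBP at 11.6 FPKM and MAP2 at 4.27 FPKM, while SYN1, OLIG2 and STMN2 were at 0. TUBB3 is also a tubulin of many tumour lines. Of 13 liver, muscle and melanocyte markers PMEL, DES and SERPINA1 reached 1 FPKM, between 1.60 and 3.47 FPKM.

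Transcription factors that define lineages were next. Of 25 factors of the gut epithelium 12 (48.0%) reached 1 FPKM, below the 56.7% of all protein-coding genes, led by ELF3 at 32.4 FPKM, EHF at 24.5 FPKM, PPARG at 10.03 FPKM, KLF5 at 8.71 FPKM and KLF4 at 7.86 FPKM. SOX9, a factor of crypt progenitors, had 5.58 FPKM, and HNF4A, a factor of enterocytes, had 1.47 FPKM. FOXA1 had 0.272 FPKM, FOXA2 0.190 FPKM and GATA6 0.894 FPKM. CDX1, GATA4, GATA5, ISX and ASCL2 were listed at 0. Of 30 master factors of other lineages 3 reached the limit, GATA2 at 3.51 FPKM, PAX6 at 2.92 FPKM and PAX8 at 1.504 FPKM, and 15 were at 0, among them the pluripotency factors POU5F1 and NANOG and the blood factors SPI1, GATA1 and TAL1. Of 39 HOX genes 19 reached 1 FPKM, led by HOXB7 at 52.2 FPKM and HOXA9 at 41.7 FPKM.

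Wnt signalling keeps intestinal stem cells dividing and is active in most colorectal cancers, where beta-catenin is no longer destroyed. Of 33 receptors, destruction complex members and nuclear factors of the pathway 26 (78.8%) reached 1 FPKM. CTNNB1, beta-catenin itself, was highest at 163 FPKM, followed by CSNK1A1, a kinase that marks it for destruction, at 147 FPKM. APC and AXIN1, scaffolds of the destruction complex, had 6.93 and 5.72 FPKM, and its kinase GSK3B 17.6 FPKM. Among the receptors RYK had 31.4 FPKM and FZD6 22.5 FPKM, and the co-receptors LRP6 and LRP5 had 8.17 and 4.47 FPKM. Of the DNA-binding partners of beta-catenin, TCF7L2 had 13.6 FPKM, TCF7 2.64 FPKM and TCF7L1 0.420 FPKM, and LEF1 was listed at 0.

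The targets of the pathway were divided. Of 17 Wnt target and stem cell genes 7 (41.2%) reached 1 FPKM: CD44 at 133 FPKM, CCND1 at 69.6 FPKM, SOX4 at 33.5 FPKM, RNF43 at 33.0 FPKM, AXIN2 at 8.30 FPKM, EPHB2 at 3.92 FPKM and ZNRF3 at 2.31 FPKM. AXIN2, RNF43 and ZNRF3 encode feedback inhibitors of the pathway. The crypt stem cell genes LGR5, ASCL2, OLFM4 and SMOC2 and the factor PROX1 were listed at 0. NOTUM, a secreted Wnt inhibitor, lay just under the limit at 0.990 FPKM.

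Growth factor signalling began with ligands made by the cells. AREG and EREG, ligands of the EGF receptor, had 218 and 115 FPKM, while TGFA had 12.8 FPKM, HBEGF 4.09 FPKM, BTC 2.39 FPKM and EGF 0.549 FPKM. Of 11 ligands 6 (54.55%) reached 1 FPKM, so this list as a count did not stand out from all protein-coding genes. No receptor reached the level of AREG or EREG. Of 31 receptor tyrosine kinases 18 (58.1%) reached 1 FPKM, close to the 56.7% of all protein-coding genes. The highest of them were MET, the receptor of hepatocyte growth factor, at 67.8 FPKM and the collagen receptor DDR1 at 37.4 FPKM. ERBB2 had 23.3 FPKM, ERBB3 7.49 FPKM and EGFR 5.53 FPKM, while ERBB4 had 0.0584 FPKM. KIT, FLT1, ALK, ROS1, NTRK2 and NTRK3 were listed at 0.

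Downstream of the receptors 23 of 25 RAS, MAP kinase and PI3 kinase genes reached 1 FPKM. Of the RAS genes HRAS had 57.2 FPKM and NRAS 32.5 FPKM. Of the kinases that RAS activates BRAF had 9.61 FPKM and ARAF 6.43 FPKM. AKT1 and AKT2 had 57.3 and 22.9 FPKM, and the catalytic subunits PIK3CB and PIK3CA had 9.38 and 8.92 FPKM, while PIK3CG, the form of blood cells, was listed at 0. All 15 output and feedback genes of the MAP kinase pathway were expressed, led by IER3 at 161 FPKM and the phosphatases DUSP6 and DUSP5 at 61.1 and 54.7 FPKM.

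TGF-beta and BMP signalling genes were expressed in 23 of 29 cases (79.3%), beside 56.7% of all protein-coding genes. The ligand BMP4 had 53.7 FPKM, GDF15 21.8 FPKM and TGFB1 1.78 FPKM, and BMP2 and INHBA were listed at 0. The receptor TGFBR2 had 6.002 FPKM, TGFBR1 11.9 FPKM and BMPR1A 22.4 FPKM. Of the signal carriers SMAD2 had 81.8 FPKM, SMAD4 55.4 FPKM and SMAD5 32.3 FPKM. Of the ID genes, known targets of BMP signals, ID1 at 259 FPKM and ID2 at 128.1 FPKM were the highest of the list, and ID3 had 69.1 FPKM.

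Of 28 cyclins, their kinases, inhibitors and RB family genes 26 (92.9%) reached 1 FPKM, with a median of 12.9 FPKM over the list. The mitotic cyclin CCNB1 was highest at 406 FPKM, followed by CDK4 at 158 FPKM, CCNB2 at 101 FPKM and CDK1 at 95.4 FPKM. Of the D-type cyclins CCND1 had 69.6 FPKM and CCND3 9.22 FPKM, and CCND2 was listed at 0. MDM2, a ubiquitin ligase, had 85.3 FPKM and the kinase inhibitor CDKN1A 51.1 FPKM. CDKN2A and RB1 had 16.8 and 12.1 FPKM. All 13 telomerase and shelterin genes were expressed, from the catalytic subunit TERT at 1.38 FPKM and the RNA template TERC at 53.6 FPKM to NHP2 at 171 FPKM.

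HCT116 is known for defective DNA mismatch repair. Of 11 mismatch repair genes 10 reached 1 FPKM. MSH6, which takes part in recognising a mismatch, had 50.2 FPKM, and PMS2, which acts in the next step, had 16.3 FPKM. MSH3 had 5.46 FPKM and the meiotic MSH4 0.257 FPKM. Among genes that bear on drugs used in colorectal cancer 20 of 23 were expressed. TYMS, the target of fluorouracil, had 91.2 FPKM, TOP1, the target of irinotecan, 39.7 FPKM, and ribonucleotide reductase RRM2 243 FPKM. DPYD, which breaks fluorouracil down, had 0.662 FPKM, and UGT1A1, which conjugates the active form of irinotecan, was listed at 0. In its family only UGT8, at 7.17 FPKM, of 20 genes reached 1 FPKM.

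Epithelial and mesenchymal adhesion genes reached 1 FPKM in 20 of 26 cases (76.9%), beside 56.7% of all protein-coding genes. Among cadherins P-cadherin stood above E-cadherin. CDH3 had 71.4 FPKM, CDH1 14.3 FPKM and the mesenchymal CDH2 was listed at 0. The catenin CTNNA1 had 166 FPKM, ITGB1 168 FPKM, the epithelial splicing factors ESRP1 and ESRP2 44.3 and 6.999 FPKM, and the desmosomal DSG2 and DSP 27.5 and 25.7 FPKM. Vimentin, VIM, the intermediate filament of mesenchymal cells, had 1.08 FPKM beside 1103 FPKM of KRT8. Not all members divided this way. The mesenchymal marker FN1 had 5.95 FPKM and the claudin CLDN1, an epithelial junction gene, 0.0258 FPKM. Of the factors that turn epithelial genes off ZEB1 had 2.54 FPKM, SNAI1 1.92 FPKM and TWIST1 1.30 FPKM, while SNAI2 had 0.0133 FPKM and TWIST2 was listed at 0. Of 44 collagen genes 8 reached 1 FPKM, led by COL6A2 at 14.4 FPKM.

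Of 41 nuclear receptors 20 (48.8%) reached 1 FPKM, beside 56.7% of all protein-coding genes, and the highest was NR1D2, a repressor of the circadian clock, at 27.9 FPKM. The retinoic acid receptor RARG had 17.5 FPKM and RARA 3.98 FPKM, and RARB was listed at 0. The vitamin D receptor VDR had 3.49 FPKM, and its target CYP24A1, which degrades vitamin D, 27.8 FPKM, the second highest of the 56 cytochrome P450 genes after CYP51A1, an enzyme of cholesterol synthesis, at 85.2 FPKM. Only 11 of the 56 reached 1 FPKM. The sex steroid receptors ESR1 and PGR were listed at 0, and the glucocorticoid receptor NR3C1 had 4.63 FPKM.

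Among long noncoding RNAs MALAT1, a nuclear speckle RNA, had 705 FPKM (chromosome 11), while NEAT1, the scaffold of paraspeckles, had 7.94 FPKM. AL355075.4, with 1561 FPKM, covers the RPPH1 stretch on the same strand of chromosome 14 and cannot be told apart from it. Hosts of small nucleolar RNAs followed: SNHG3 had 519 FPKM, GAS5 389 FPKM, SNHG16 295 FPKM, SNHG5 229 FPKM and SNHG1 185 FPKM. UCA1 had 27.4 FPKM and CRNDE, named for colorectal neoplasia, 7.49 FPKM. H19 had 0.591 FPKM and HOTAIR 0.106 FPKM, and MEG3 was listed at 0. Of the 28 values of this list, which holds the 2 RMRP identifiers and RN7SK, 22 (78.6%) reached 1 FPKM. Over all long noncoding RNA genes 5.03% did. The list holds RNAs studied in cancer and was chosen with earlier results of these data known.

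Gene families ranged from almost all on to almost all off. Mitochondrial ribosomal proteins (78 of 78), complex I genes (46 of 48), cytosolic ribosomal proteins (80 of 84), proteasome genes (42 of 45), initiation factors (52 of 56) and DEAD-box helicases (34 of 39, led by DDX5 at 616 FPKM) stood at one end. Olfactory receptors (4 of 386), keratin-associated proteins (1 of 94), beta-defensins (0 of 39), late cornified envelope proteins (0 of 18) and mucins (0 of 17) stood at the other. Solute carriers lay in between with 196 of 375 (52.3%), close to the 56.7% of all protein-coding genes, led by the mitochondrial phosphate carrier SLC25A3 at 764 FPKM. Zinc finger genes with ZNF symbols had 340 of 514 (66.1%) at 1 FPKM or more and a median of 2.69 FPKM. All protein-coding genes had 56.7% and a median of 2.42 FPKM. Potassium channel genes had 14 of 97 and chemokines 7 of 42, led by CXCL16 at 13.6 FPKM. Genes with interleukin symbols, which include the receptor IL4R, had 6 of 46, led by IL18 at 47.4 FPKM.

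**Figure D4:**
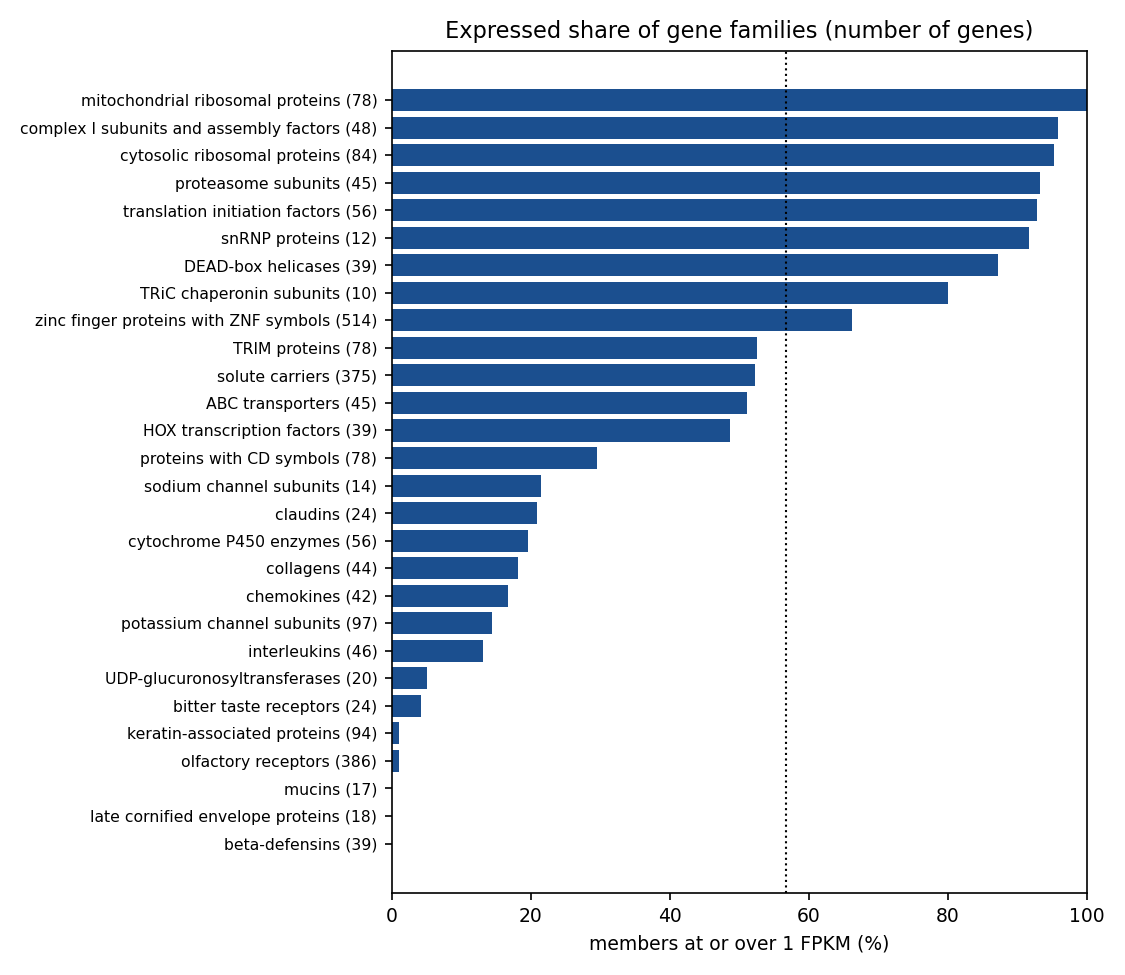
Share of each gene family's members at 1 FPKM or more (x axis, %), with the number of genes in parentheses and a dotted line at the 56.7% of all protein-coding genes. Families of translation, proteasome and respiratory chain lie above 90%, and olfactory receptors, keratin-associated proteins, beta-defensins, late cornified envelope proteins and mucins lie between 0% and about 1%.

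The exceptions among olfactory receptors lay together. OR51B5 had 72.0 FPKM, OR51B4 7.08 FPKM, OR51B2 4.19 FPKM and OR51I1 1.94 FPKM, all on the minus strand of chromosome 11 between 5301014 and 5505652, beside the beta-globin cluster. The embryonic globin gene HBE1 had 106.9 FPKM and the fetal globin gene HBG2 13.7 FPKM, while HBB had 0.0540 FPKM and HBD and HBG1 were listed at 0. The annotated gene models of HBE1 and OR51B5 begin at the same base, 5505652, that of HBG2 begins at 5505605, and all 3 span OR51B4 or OR51B2 or both. A read in this stretch can fall in several models, and the table does not show which promoter or exons it came from, so the division among these genes is uncertain.

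Runs of neighbouring genes were taken over the autosomes and X. Those of silent genes were mostly short, with a median of 1 gene over 3234 runs under 0.1 FPKM, and a few were long. The longest run of neighbouring protein-coding genes under 0.1 FPKM held 53 genes on chromosome 1, from TCHHL1 to S100A7 (152084144 to 153460701), the epidermal differentiation region, with 51 of them at 0. A run of 42 genes on chromosome 11 (55723776 to 57237314) held 38 olfactory receptor symbols, and a run of 36 on chromosome 21, from GRIK1 to KRTAP19-8, had all 36 at 0. Runs of genes at 1 FPKM or more numbered 3913 with a median of 2 genes. The longest of these, of 22 genes, occurred on chromosomes 2 (USP34 to SPRED2), 12 (DENR to ATP6V0A2) and 17 (HID1 to RECQL5). There were 97 runs of at least 10 genes at 1 FPKM or more and 44 runs of at least 10 under 0.1 FPKM. A run of 18 genes on chromosome 6, from 26020490 to 26199293, is mostly replication-dependent histone genes and had a median of 340 FPKM; their mRNAs lack poly(A) tails and their copies are near-identical.

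Over the autosomes and X, the expressed share of protein-coding genes by chromosome ranged from 40.8% of 845 on X and 46.8% of 231 on 21 to 62.8% of 600 on 15. The median of the expressed genes ranged from 8.63 FPKM on chromosome 19 to 15.6 FPKM on chromosome 18. The low shares lie beside large silent families, such as the 36-gene run on chromosome 21, whose part in them was not tested.

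Some groups of genes share sequence or position with other entries of the annotation, and whether this lies behind their zeros was not tested. The 18 protein-coding genes of the pseudoautosomal regions appear under 2 identifiers, on X and on Y, and 35 of their 36 entries were listed at 0, the other being VAMP7 at 0.0131 FPKM. They include SLC25A6, a mitochondrial ADP/ATP carrier, CD99, VAMP7 and ASMTL, while of the relatives of SLC25A6 outside these regions SLC25A5 had 370 FPKM, SLC25A4 19.7 FPKM and SLC25A31 0.0146 FPKM. Of 109 protein-coding genes whose longest transcript is identical to that of another gene 102 were listed at 0. SNRPN and SNURF, which share a locus on chromosome 15, were both listed at 0 while the related snRNP protein genes SNRPD2 and SNRPG had 660 and 655 FPKM. Of 111 read-through genes, named by 2 joined symbols, 8 (7.21%) were listed at 0, beside 23.4% of all protein-coding genes, and 38 reached 1 FPKM. Without the pseudoautosomal, identical-transcript and read-through genes 4546 protein-coding genes in place of 4656 were listed at 0.

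Gene structure differed with level. Genes at 1000 FPKM or more were compact, with a median longest transcript of 1842 bases and a median span of 5.83 kb, beside 4082 bases and 35.7 kb for genes at 1 to 10 FPKM. Genes at 0 had a median longest transcript of 2043 bases and a median span of 12.1 kb. Expressed genes had a median of 8 annotated transcripts and genes at 0 had 3. With the median over a gene's transcripts in place of the longest, the length was 711.5 bases at 1000 FPKM or more and 1422 at 1 to 10 FPKM. It was 1369.5 bases for genes at 0 and 1032 over all expressed genes. By that measure genes at 0 were not shorter than the expressed genes as a whole. Genes with 1 exon made up 14.5% of the genes at 0, 13.9% of those at 1000 FPKM or more and 3.36% of all expressed genes. The span covers introns and does not enter the FPKM, while transcript length does, as its divisor.

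The expressed share of genes went up with the CpG number of the promoter, and the level of the expressed genes was higher from 15 CpG on than below 10. The windows of the RefSeq table hold 250 bases before and 50 after the annotated start. They were found for 82.1% of the 18696 protein-coding genes with a RefSeq entry on the chromosomes the table covers, which leave out chromosome 8, Y and the mitochondrial genome. The share of genes at 1 FPKM or more rose with every step of CpG number: 12.1% with 0 to 1 CpG (883 genes), 16.5% with 2 to 4 (1622), 28.5% with 5 to 9 (1542), 48.4% with 10 to 14 (1118), 67.8% with 15 to 19 (1477), 77.6% with 20 to 24 (1936), 79.2% with 25 to 29 (2077) and 79.9% with 30 or more (4702). The expressed genes had medians of 7.46, 7.02 and 7.40 FPKM in the 3 lowest steps, 9.11 FPKM at 10 to 14 CpG, and 14.1, 15.8, 15.4 and 12.6 FPKM in the 4 highest. Windows were matched for 85.6% of the expressed genes but for only 77.4% of genes under 0.1 FPKM. That is below 80%, so a direct comparison of expressed with silent promoters is void and is not given, and the shares above rest on the same uneven matching. Genes are not independent replicates, and these shares are a description.

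**Figure D5:**
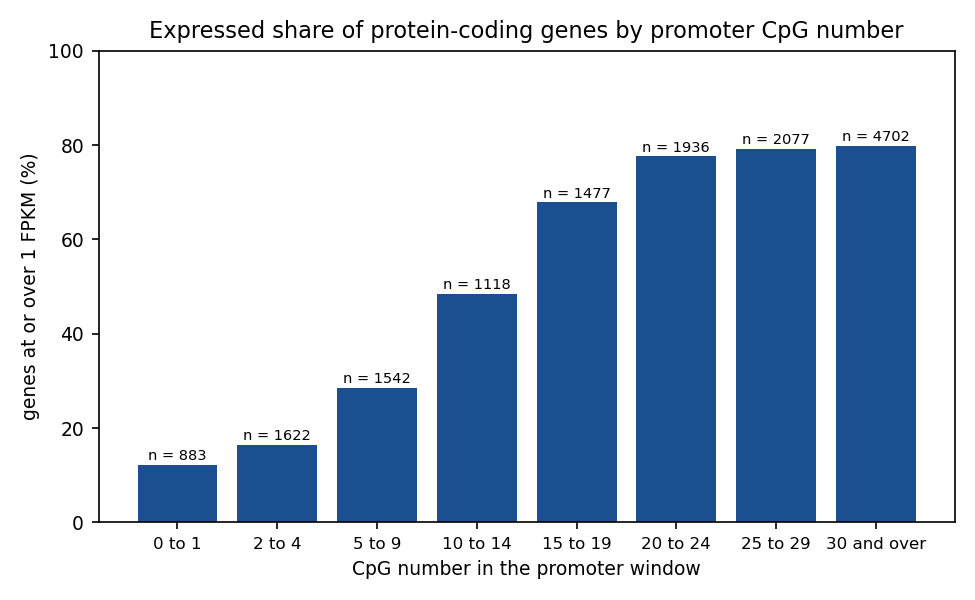
Share of protein-coding genes at 1 FPKM or more (y axis, %) by the CpG number of the promoter window (x axis), with the number of genes above each bar. The bars climb from 12.1% to 79.9% and level off from 20 CpG on.

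Single members of the lists give examples of windows with many and with few CpG at different levels. The 30 bases before the annotated start of 8 list members, chosen after their values were seen, are printed in the direction of the gene with each CpG in capitals. The first pair are expressed and CpG-rich, CTNNB1 with 39 CpG in its window and HSPD1 with 34. The next pair are CpG-rich and listed at 0, the receptors KIT with 38 and FLT1 with 33. KRT8 at 1103 FPKM and COX7A2, a subunit of complex IV, at 415 FPKM are high and have CpG-poor windows, with 2 and 0 CpG. These counts hold for the annotated start, which need not be the promoter used in these cells. The KRT8 window lies inside its gene model, which spans 52897187 to 52949954 on chromosome 12. The differentiation markers FABP1 and LGALS4, each with 7 CpG, are listed at 0.
CTNNB1, chr3:41199475-41199504, plus strand: ttataagagctccttgtgCGgCGccatttt
HSPD1, chr2:197500275-197500304, minus strand: cctCGcccctcccagggagggagggCGgtc
KIT, chr4:54657927-54657956, plus strand: ctctgggggctCGgctttgcCGCGctCGct
FLT1, chr13:28495129-28495158, minus strand: ataaatCGccccCGccctCGgctgctcttc
KRT8, chr12:52926470-52926499, minus strand: ttgtggggaggtgcctgatgcatgattttc
COX7A2, chr6:75250299-75250328, minus strand: atcttaagtaccttattattccattgtctt
FABP1, chr2:88128063-88128092, minus strand: ataaaacagcctacagtggacagtctggtc
LGALS4, chr19:38812946-38812975, minus strand: tataagagccaccacCGcctgccatcCGcc

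Of the 69 list members at 0 that have a promoter entry, 24 had 15 CpG or more, so CpG-rich windows occurred among genes at 0 too. In turn, 13 members with under 5 CpG were expressed, among them KRT8, COX7A2, TUBA1C at 313 FPKM, HK1 at 28.5 FPKM and RB1 at 12.1 FPKM. Since the table holds 1 start per gene, a CpG-poor window may not be the promoter in use. The lists were chosen with earlier results of these data known, and the matching of windows was uneven. These counts therefore give examples and do not compare expressed with silent promoters.

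Short motifs were counted in the same windows on both strands. The letters CCGGAAG, the core bound by ETS factors, were in 20.9% of 9258 windows of expressed genes, beside 14.4% of all 15357 windows, and in 34.3% of 67 windows of ribosomal protein genes. GGGCGG, the GC box bound by SP1, was in 72.3% of expressed windows and 59.2% of all. Both motifs hold a CpG and therefore move with the CpG number. TATAAA was in 5.35% of expressed windows and 9.57% of all, but in 16.1% of the 87 windows of genes at 1000 FPKM or more. CCAAT was in 37.2% and 36.5%. A match is a string of letters and does not show a bound factor. These shares rest on the same uneven matching of windows and do not compare expressed with silent promoters.

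Genes that start back to back were described as pairs. There were 715 pairs of neighbouring protein-coding genes on opposite strands with starts at most 1000 bases apart. Both genes reached 1 FPKM in 506 pairs (70.8%), 1 of them in 164 and neither in 45. Among the 1433 identifiers that carry the symbol of a paired gene 82.3% were expressed, beside 56.7% of all protein-coding genes. A symbol can have more than 1 identifier, so this number is above that of the paired genes. Whether partners share their state beyond this high share was not tested. Among the 506 pairs 154 lay within 2-fold and 100 lay 10-fold or more apart, and Spearman's rho between partners was 0.123, a description over pairs. BTK, a kinase of B cells, had 0.0741 FPKM although its start lies 28 bases from that of RPL36A at 1140 FPKM. PATL2 had 0.970 FPKM, 171 bases from B2M, the light chain of HLA class I, at 1442 FPKM.

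Processed pseudogenes are copies made from mRNA. Of 10677, 5047 carry the symbol of a protein-coding parent, and 516 of these reached 1 FPKM. Their parents had a median of 1065 FPKM and 478 of the 516 had a parent at 100 FPKM or more, while the parents of the 3251 pseudogenes at 0 had a median of 136 FPKM. The highest were RPS2P5 at 735 FPKM, beside 2284 FPKM of RPS2, and PTMAP5 at 471 FPKM, beside 3474 FPKM of PTMA. Reads of near-identical sequence can be placed on either copy, and how they were placed is not given in the sources used here. In 4 of the 516 cases the pseudogene stood above its parent.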

How the data were processed

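Total RNA of HCT116 cells was sequenced from stranded, ribosomal RNA-depleted libraries, per the labels' protocols. The FPKM values were computed by the authors and deposited in the layout of Cuffdiff, per the file headers, with 1 value per gene for the 2 libraries of a group. The submitters' processing notes name build hg38, HISAT2 2.1.0, Cuffdiff 2.2.1, Cuffnorm 2.2.1, featureCounts, bcl2fastq 2.20 and DESeq 1.36.0, with no role or order. Whether replicates came from separate cultures is not given in the sources used here. The group's value appears in 3 comparisons of the table and was identical for all genes but ZNF468, for which the value in most of them, 6.43 FPKM, was used. Tables of antibody-enriched RNA were not used.

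No values were rescaled, and no test was run. All 58699 identifiers matched GENCODE release 29, from which symbols, biotypes, positions on GRCh38 and transcript lengths were taken. Expressed means 1 FPKM or more. Values above 0 but under 1e-06, held by 336 genes, count as under 0.1. Lists (28, with 627 entries for 607 genes, 20 entries thus repeating a gene of another list) and symbol families (28) were chosen with earlier results of these data known. Named genes were the 20 highest protein-coding and 10 highest other genes, list members, the leading genes of families and genes at the limit. Genes of the globin cluster, pseudogenes, back-to-back pairs and genes with shared sequence were singled out after their values were seen. Promoter windows are from RefSeq (GRCh38.p14), matched by Entrez identifier or symbol. The counting functions were tested on simulated data. Python 3 with pandas and numpy was used. Results on some list members and some of the highest genes are not reported here, while counts include them.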

Additional observations from a re-analysis of the deposited data

How the results depend on the processing

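Depth is unknown and the table has no values per library, so no error, no fit without a replicate and no replicate check could be made. No paired analysis was possible because the result comes from no test and the 2 libraries share 1 value. The count of expressed protein-coding genes, 11299, lay between 10304 and 12019 over limits of 2 and 0.5 FPKM, rescaling to a fixed sum and the removal of genes with shared sequence, an alternative chosen after seeing the data. Genes listed at 0 numbered 6509 when all under 0.1 FPKM were added. Long noncoding RNA genes depended on the limit, with 1415 at 0.5 and 421 at 2 FPKM in place of 808, and pseudogenes fell from 1003 to 645 at 2 FPKM. The share of the 10 highest genes was 39.8%, 39.5% over genes with a longest transcript of at least 300 bases and 6.60% over protein-coding genes. The share of the 100 highest protein-coding genes, 32.6%, was 32.8% without mitochondrially encoded and 26.0% without ribosomal protein genes. The median transcript length of expressed protein-coding genes was 3670 bases from the longest transcript and 1032 bases from the median over transcripts. For genes at 0 these were 2043 and 1369.5 bases, so the order of the groups depended on the measure. Of 56 list counts at the other limits 51 stayed within 1.5 times, and the other 5 were lists with at most 3 members at 1 FPKM. Another measure of promoter CpG was not run because the comparison of expressed with silent promoters is void.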
